A study of Rattus norvegicus with 16 samples.

Results

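Titin and its neighbours in the Z disc and the M band were examined in the hearts of 2-day-old rats, as 9 genes chosen by name: Ttn, Tcap, Myoz2, Actn2, Nebl, Mybpc3, Myom1, Myom2 and Ankrd1. Of these, 6 had a probe set to which the platform annotation gives exactly 1 gene symbol, 1 probe set each, out of 14324 genes so named in a table of 27342 probe sets. Tcap, Nebl and Myom2 had no such probe set and were not analysed here. The animals were 8 pups of HHR, the Hypertrophic Heart Rat, an inbred line described by its enlarged hearts, and 8 of NHR, the Normal Heart Rat, its control strain. Heart size was not examined here, so whether the hearts of these 2-day-old pups were enlarged is not shown. Each strain had 4 females and 4 males, giving the groups HHR female, HHR male, NHR female and NHR male. No treatment, transgene or deletion is given for either strain. Each array held the RNA of 1 pup's heart. One label describes ventricles cut away from the atria and another the whole heart, so atrial tissue in the samples cannot be told from the labels.

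The sarcomere is the contractile unit of striated muscle. Thin actin filaments are anchored at the Z disc, where alpha-actinin cross-links them, and thick myosin filaments are held in register at the M band by myomesin. Titin is a giant elastic protein that reaches from the Z disc to the M band, sets the passive stiffness of heart muscle and carries binding sites for many signalling and turnover proteins. Myosin-binding protein C sits on the thick filament between these structures and modulates the action of myosin. In the heart the springs of titin change through alternative splicing around birth, with the splicing factor RBM20 as a main regulator. A single probe set does not separate the isoforms.

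The promoters of the genes that differed between the strains (Ttn, Mybpc3 and Myom1) are shown beside those of 2 Z disc genes that did not pass the test (Actn2 and Myoz2), so that the letters upstream of both kinds can be compared. Each is the 250 bases before the transcript start in RefSeq, build GRCr8, read 5′ to 3′ along the gene's own strand. Such a sequence was at hand for 5 of the 6 measured genes, and Ankrd1 was not among them. Capitals mark a match to the MEF2 motif, the binding site of a transcription factor family of muscle.
Ttn, chr3:82332111-82332360, minus strand: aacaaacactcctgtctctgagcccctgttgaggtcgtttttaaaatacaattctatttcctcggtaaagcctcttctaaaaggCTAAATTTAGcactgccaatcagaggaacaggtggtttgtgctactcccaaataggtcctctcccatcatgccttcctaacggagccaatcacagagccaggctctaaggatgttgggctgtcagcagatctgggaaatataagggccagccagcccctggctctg
Mybpc3, chr3:97550811-97551060, plus strand: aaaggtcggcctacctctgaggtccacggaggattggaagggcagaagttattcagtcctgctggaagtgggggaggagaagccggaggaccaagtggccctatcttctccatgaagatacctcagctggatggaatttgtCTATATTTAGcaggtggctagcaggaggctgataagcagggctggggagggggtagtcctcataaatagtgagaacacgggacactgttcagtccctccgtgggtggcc
Myom1, chr9:118366896-118367145, plus strand: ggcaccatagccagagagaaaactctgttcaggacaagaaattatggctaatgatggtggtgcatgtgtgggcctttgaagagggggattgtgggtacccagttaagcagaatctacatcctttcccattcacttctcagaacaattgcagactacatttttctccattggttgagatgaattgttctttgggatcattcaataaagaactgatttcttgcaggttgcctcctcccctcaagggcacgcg
Actn2, chr17:62834805-62835054, plus strand: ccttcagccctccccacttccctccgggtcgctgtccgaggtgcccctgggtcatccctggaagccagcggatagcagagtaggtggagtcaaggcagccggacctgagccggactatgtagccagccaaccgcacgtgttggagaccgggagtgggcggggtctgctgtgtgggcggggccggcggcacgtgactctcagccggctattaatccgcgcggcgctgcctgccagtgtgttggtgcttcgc
Myoz2, chr2:213852779-213853028, minus strand: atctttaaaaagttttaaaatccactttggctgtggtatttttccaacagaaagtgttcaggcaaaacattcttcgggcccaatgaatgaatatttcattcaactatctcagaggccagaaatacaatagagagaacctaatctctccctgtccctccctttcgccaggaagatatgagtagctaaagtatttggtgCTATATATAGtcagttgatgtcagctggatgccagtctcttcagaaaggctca

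The windows of Ttn, Mybpc3 and Myoz2 each held 1 MEF2 match on either strand, starting 166, 109 and 53 bases before the transcript start, whereas those of Myom1 and Actn2 held 0. Among 33469 promoter windows of the same length, 2.96% held such a match. All 5 windows held an E box (CANNTG), as did 65.5% of all windows: Ttn held 1, Mybpc3 3, and Myom1, Actn2 and Myoz2 2 each. None of the 5 held the M-CAT motif (CATTCC), which 12.1% of all windows held. The same was true of AGATAA, a form of the GATA motif, at 10.3% of all windows. Other forms of the GATA motif were not searched. A TATA motif (TATAAA), at 12.9% of all windows, and a CArG motif, at 1.5%, were likewise not found in these 5. Both strands were searched for each motif. The MEF2 match overlapped no E box, and in Mybpc3 it ended next to one. It was present both in windows of genes that were lower in HHR (Ttn and Mybpc3) and in that of a gene that did not pass the test (Myoz2). These matches describe letters only.

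The arrays had medians between 7.19 and 7.28 on the log2 scale, and any pair correlated at 0.990 or more across probe sets. HHR arrays scored between -3.72 and 7.48 on the first component of within-group variation (26.7% of that variation). In NHR, female 3, female 4 and male 4 scored 14.4, 15.1 and 22.6, male 3 scored 1.74, and female 1, female 2, male 1 and male 2 lay on the other side, between -16.9 and -11.1. Results are also given without the 3 NHR arrays of high score, a choice made after seeing the data. The 4 of low score were not removed together, so only 1 side of this spread was tried. The tissue carried heart muscle markers at high levels, with a mean over 10 of 10 such markers of 13.39 to 13.48 in HHR and 13.46 to 13.60 in NHR. Of 11 measured skeletal muscle markers, Myod1, Myh1, Myh2, Myf6, Tnni2, Tnnt3 and Actn3 lay at or below the 40th percentile of all values (6.57) on all 16 arrays. Of the other 4, Myog and Myh3 lay above it on 1 array each and Myh4 on 8, and Ckm, which heart muscle also makes, on all 16, at 12.89 to 12.98 in HHR and 13.09 to 13.32 in NHR. The sources used here give no litter, dam or batch for a pup, so strain and litter cannot be told apart, and p-values measure the spread between these pups.

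Of the 6 measured genes, 3 (Ttn, Mybpc3 and Myom1) fell in HHR relative to NHR, averaged over the sexes. None of the others (Actn2, Myoz2 and Ankrd1) passed the test in either direction. The test was limma's moderated test over all 27342 probe sets with Benjamini-Hochberg adjustment and a threshold of 0.05. The count was the same at an unadjusted p under 0.05, which 9090 of the 27342 probe sets reached. Across all probe sets 11% were called lower and 9.64% higher, and among the 14324 genes by their brightest probe set 11.2% were called lower and 11.8% higher. Which direction held the majority depended on the scaling: 46.6% of called probe sets were higher as reported, 52.6% with cyclic loess and 56.3% with median centring. The median difference over the 6 genes was -0.17 on the log2 scale, against -0.03 over all probe sets. All 6 differences were negative, as were 60.7% of those over all probe sets. The count of 3 lower genes was the same in 28 of 29 alternative analyses, the exception being a minimum change of 1.5-fold, which 0 of the 6 reached.

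**Figure D1:**
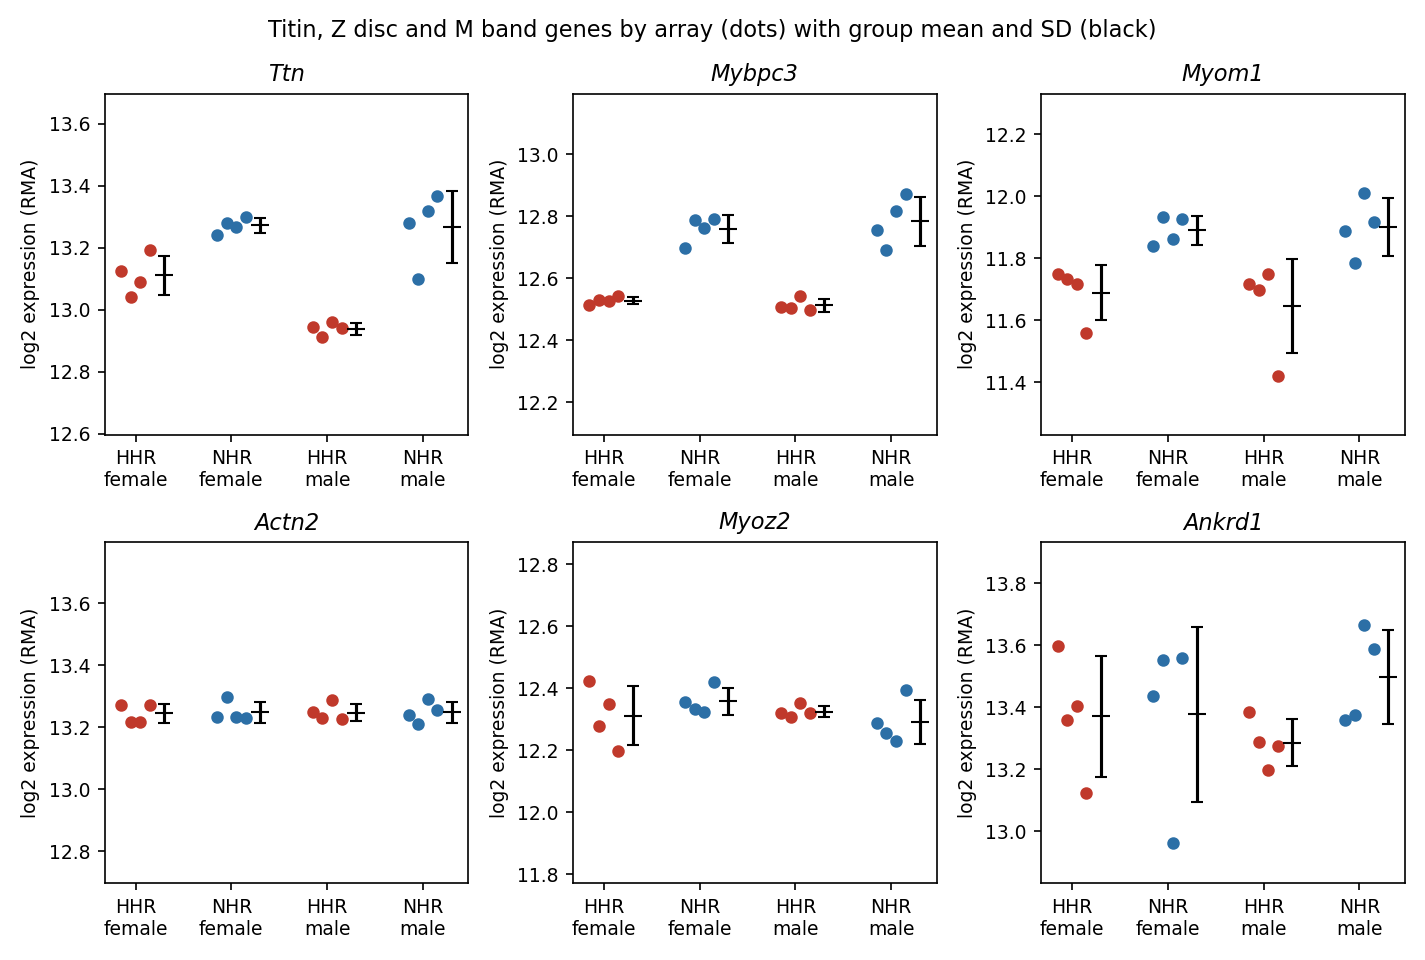
Log2 expression (RMA, vertical axes) of the 6 measured genes on each of the 16 arrays (dots), by group, with the group mean and SD in black beside them (n = 4 arrays a group). All panels span 1.1 log2 units. The HHR arrays (red) lie below the NHR arrays (blue) for Mybpc3 and Myom1, nearly so for Ttn, and among them for Actn2, Myoz2 and Ankrd1.

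Ttn encodes titin. Its level was 13.12, 13.04, 13.09 and 13.19 in the HHR females and 12.94, 12.91, 12.96 and 12.94 in the HHR males. In the NHR females it was 13.24, 13.28, 13.27 and 13.30, and in the NHR males 13.28, 13.10, 13.32 and 13.37. Within each sex all 4 HHR arrays lay below all 4 NHR arrays, but across the sexes NHR male 2 lay below HHR females 1 and 4, so that 6 of 8 HHR arrays were below the lowest NHR array. Ttn averaged 13.03 ± 0.10 in HHR and 13.27 ± 0.08 in NHR (SD, n = 8 each). The difference was -0.24 (SE 0.04, 95% confidence interval -0.33 to -0.15, limma adjusted p = 7.4e-04), or a ratio of HHR to NHR of 0.845 on the linear scale.

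The groups ordered from low to high as HHR male (mean 12.94), HHR female (13.11), NHR male (13.27) and NHR female (13.27). The ranges of the HHR males and HHR females did not overlap, whereas those of the NHR groups did. The strain difference was -0.33 in males (SE 0.06, limma adjusted p = 0.0048) and -0.16 in females (SE 0.06, limma adjusted p = 0.0907). The test of the difference between these effects gave -0.17 (SE 0.08, limma adjusted p = 0.993, unadjusted p = 0.0658), so a difference between the sexes in the strain effect is not shown. Within HHR, males minus females was -0.17 (SE 0.06, limma adjusted p = 0.862), a comparison chosen after the values were seen, in which 0% of all probe sets passed. In females Ttn passed after cyclic loess normalization (-0.25, limma adjusted p = 0.0168), with array weights (0.0437), with moderation that was trended and robust (0.0489) and without NHR male 2 (0.0434). Leaving out that male array left the female difference at -0.16. Only the estimate of spread, which all groups share in the fit, and the adjustment changed.

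Mybpc3 encodes the cardiac myosin-binding protein C of the thick filament, a gene mutated in human inherited cardiomyopathy. It read 12.51, 12.53, 12.53 and 12.54 in HHR females and 12.51, 12.50, 12.54 and 12.50 in HHR males. NHR females had 12.70, 12.79, 12.76 and 12.79, and NHR males 12.76, 12.69, 12.82 and 12.87. All 8 HHR arrays lay below every NHR array, which held for 2.2% of all probe sets. The HHR arrays spanned 12.50 to 12.54 (SD 0.02, n = 8) and the NHR arrays 12.69 to 12.87 (SD 0.06, n = 8).

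The strain difference of Mybpc3 was -0.25 (SE 0.04, 95% confidence interval -0.33 to -0.17, limma adjusted p = 1.8e-04), or a ratio of HHR to NHR of 0.84. It was the only measured gene of the 6 that passed in females (-0.23, SE 0.05, limma adjusted p = 0.00879) and in males (-0.27, SE 0.05, limma adjusted p = 0.00706) taken alone. The call in females was not made without the 3 NHR arrays of high score (-0.21, limma adjusted p = 0.0571), where only 2 NHR females remain. The 2 HHR groups overlapped with each other, as did the 2 NHR groups.

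Myom1 encodes myomesin 1, which cross-links thick filaments and the end of titin at the M band. HHR females had levels of 11.75, 11.73, 11.72 and 11.56, and HHR males 11.72, 11.70, 11.75 and 11.42. Levels in NHR females were 11.84, 11.93, 11.86 and 11.93, and in NHR males 11.89, 11.78, 12.01 and 11.92. The 8 HHR arrays all lay below the lowest NHR array, and HHR female 4 and HHR male 4 were lower than the other HHR arrays. The means were 11.67 ± 0.12 in HHR and 11.89 ± 0.07 in NHR (SD, n = 8 each), a difference of -0.23 (SE 0.05, 95% confidence interval -0.34 to -0.12, limma adjusted p = 0.00561). Without HHR male 4, the array with the lowest value, the difference was -0.19 (limma adjusted p = 0.00872).

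Taken by sex, Myom1 differed by -0.20 in females (SE 0.07, limma adjusted p = 0.0906) and by -0.25 in males (SE 0.07, limma adjusted p = 0.0655), and neither passed. In both sexes all 4 HHR arrays lay below all 4 NHR arrays. It passed in males with quantile normalization (limma adjusted p = 0.0304), cyclic loess (0.0469), array weights (0.0411), a filter on dim probe sets (0.0458), moderation that was trended and robust (0.0488) and without NHR male 2 (0.0332). It passed in females with quantile normalization (0.0316), with cyclic loess (0.0340) and without HHR male 4 (0.0458). Leaving out that male array left the female difference at -0.20 and changed only the shared estimate of spread and the adjustment. Across all probe sets 1.98% were called lower in males and 6.21% in females, and the counts among the 6 genes were 2 in males (Ttn and Mybpc3) and 1 in females (Mybpc3).

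**Figure D2:**
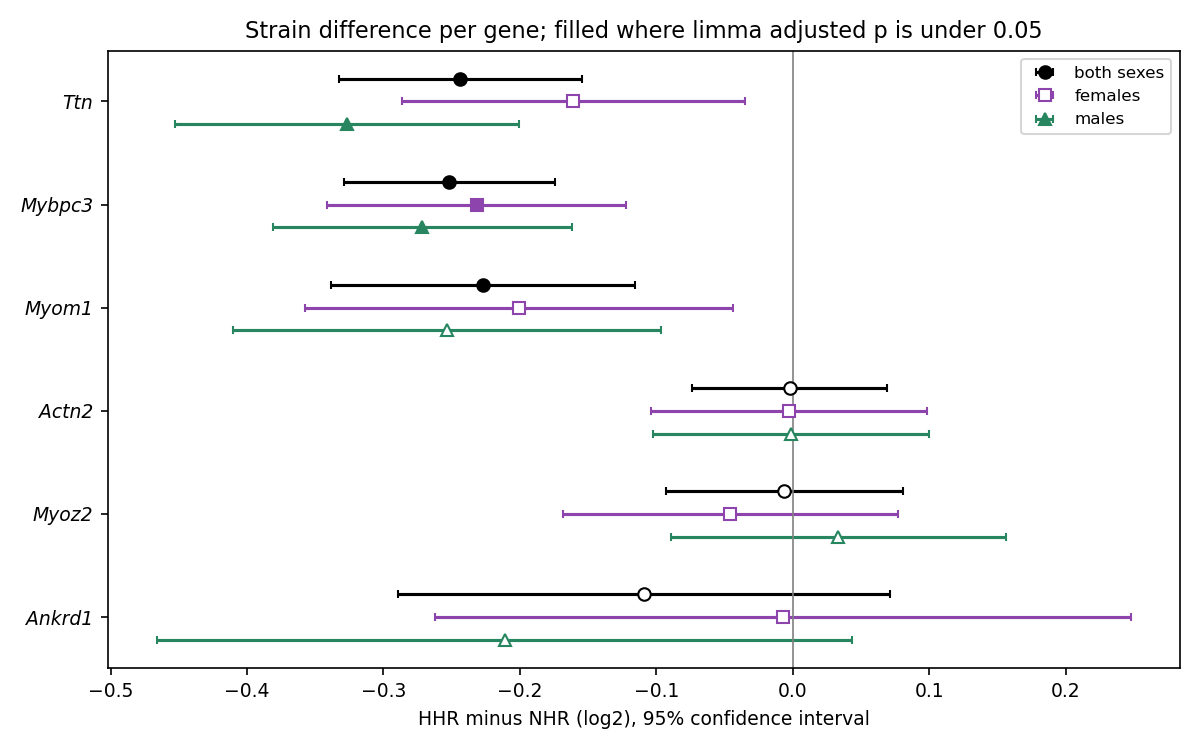
HHR minus NHR (log2, horizontal axis) for the 6 measured genes, over both sexes, in females and in males, with 95% confidence intervals. Filled symbols passed at an adjusted p under 0.05. Ttn, Mybpc3 and Myom1 lie between -0.16 and -0.33 in all 3 comparisons, and the intervals of Actn2, Myoz2 and Ankrd1 include 0.

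Actn2 and Myoz2 are Z disc genes. Actn2 encodes the alpha-actinin of heart muscle, which cross-links actin filaments at the Z disc and binds the end of titin. It averaged 13.25 ± 0.03 in HHR and 13.25 ± 0.03 in NHR (SD, n = 8 each), with ranges of 13.22 to 13.29 in HHR and 13.21 to 13.30 in NHR. The groups overlapped almost fully, and the difference was -0.0022 (SE 0.03, 95% confidence interval -0.07 to 0.07, limma adjusted p = 0.975). The interval leaves out a change as large as the one measured for Ttn. Myoz2 encodes myozenin 2 (calsarcin 1), which binds alpha-actinin and the phosphatase calcineurin. It averaged 12.32 ± 0.06 in HHR and 12.32 ± 0.07 in NHR (SD, n = 8 each), with ranges of 12.20 to 12.42 in HHR and 12.23 to 12.42 in NHR. Its difference was -0.0063 (SE 0.04, 95% confidence interval -0.09 to 0.08, limma adjusted p = 0.937), and its sign turned in 6 of 29 alternatives, as did that of Actn2 in 7. By sex, Myoz2 differed by 0.03 in males and -0.05 in females, and Actn2 by -0.0014 in males and -0.0030 in females, and none of these passed.

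Ankrd1 encodes an ankyrin repeat protein that binds the I band of titin and responds to stretch and load in heart muscle. Its level was 13.60, 13.36, 13.41 and 13.12 in HHR females and 13.38, 13.29, 13.20 and 13.28 in HHR males, against 13.44, 13.55, 12.96 and 13.56 in NHR females and 13.36, 13.38, 13.67 and 13.59 in NHR males. It was the most uneven of the 6 genes within groups, with a SD of 0.28 in NHR females, where NHR female 3 was the lowest array of all 16. The strains overlapped, at 13.33 ± 0.14 in HHR and 13.44 ± 0.22 in NHR (SD, n = 8 each). The difference of -0.11 did not pass (SE 0.09, 95% confidence interval -0.29 to 0.07, limma adjusted p = 0.40). It was -0.21 in males (SE 0.12, limma adjusted p = 0.355), where 3 of 4 HHR arrays lay below the lowest NHR array, and -0.0071 in females (SE 0.12, limma adjusted p = 0.981). Single arrays moved its size in both directions: the difference was -0.068 without HHR female 4 (limma adjusted p = 0.63) and -0.18 without NHR female 3 (limma adjusted p = 0.0798).

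**Figure D3:**
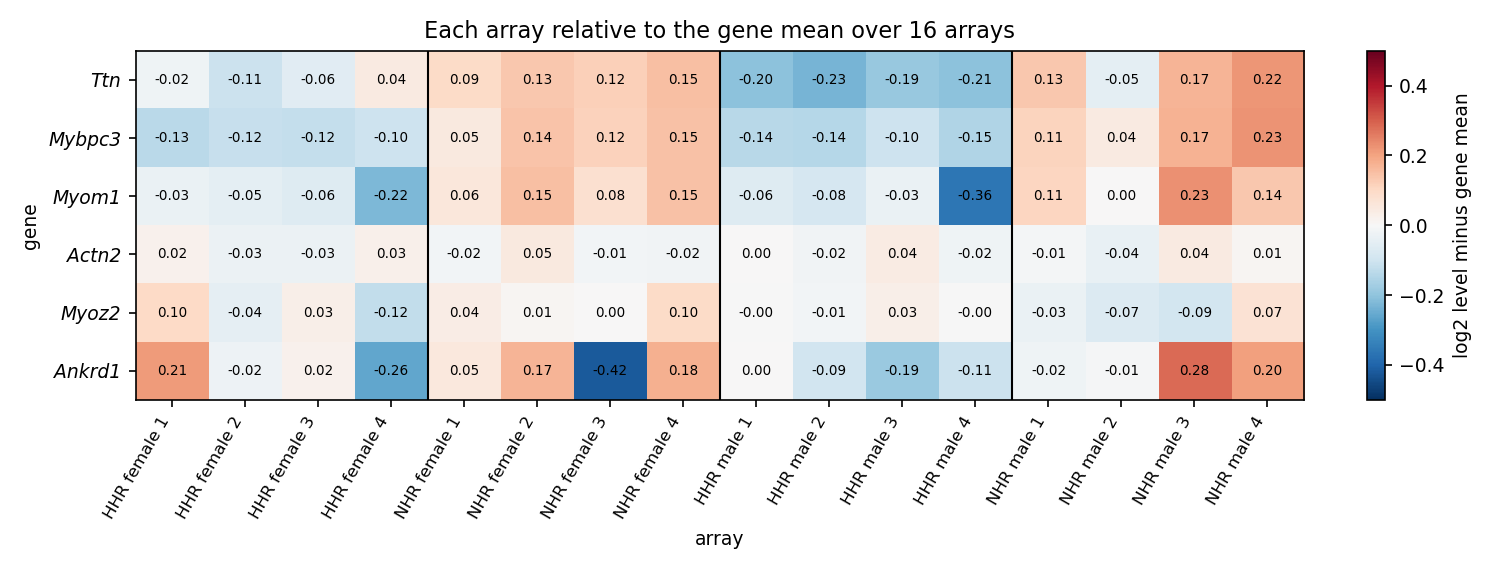
Log2 level of each measured gene (rows) on each array (columns) minus the gene's mean over all 16 arrays, in log2 units, with blue below and red above the mean. Ttn, Mybpc3 and Myom1 are below their mean on every HHR array but HHR female 4 for Ttn, Actn2 stays near its mean throughout, and Ankrd1 varies from array to array in both strains.

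The 6 genes did not share a single pattern over the arrays. After each gene was centred on its own mean over the 16 arrays, Ttn and Mybpc3 had the smallest root-mean-square difference of any pair among the 6, 0.067 log2 units. Actn2 and Myoz2 followed closely at 0.068, then Mybpc3 and Myom1 at 0.081 and Ttn and Myom1 at 0.107. The distance between Actn2 and Myoz2 exceeded that of either gene from a flat line, 0.027 for Actn2 and 0.061 for Myoz2. Ankrd1 was 0.165 to 0.188 from each of the other 5. For sex, averaged over the strains, 0 of the 6 passed (0.011% of all probe sets did, 1749 had an unadjusted p under 0.05, as did Ttn among the 6). The largest sex difference was that of Ttn, -0.09 male minus female (SE 0.04, limma adjusted p = 0.78). With a minimum change of 1.5-fold, 0 probe sets passed for sex. The sex of each pup was taken from the labels and was not checked with sex-linked genes. For the interaction of strain and sex 0 of the 6 and 0% of all probe sets passed limma's test, with 0 of the 6 and 1390 probe sets at an unadjusted p under 0.05.

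Among 8481 other genes with a mean level above the median of all probe sets, the patterns nearest to Ttn over the 16 arrays by the same measure were those of Ryr2, Dnm2 and Ank3. Ryr2, the calcium release channel of the sarcoplasmic reticulum, was 0.055 log2 units from Ttn, Dnm2, a dynamin that severs membrane necks, 0.059, and Ank3, an ankyrin that anchors membrane proteins, 0.060. The median gene was 0.195 from Ttn. All 3 passed the strain test, with differences of -0.26, -0.22 and -0.20. They were picked for nearness to Ttn on these same arrays, strain difference included, so their passing is no separate result. The nearest pattern to Mybpc3 was that of the anion exchanger Slc4a3 (0.037), to Myom1 that of the dynactin subunit Dctn1 (0.062), to Actn2 that of cardiac actin, Actc1 (0.030), to Myoz2 that of the peroxisomal gene Pex14 (0.035) and to Ankrd1 that of the F-box gene Fbxl22 (0.077). For Actn2 even this nearest gene was farther away than a flat line, from which Actn2 lay at 0.027. The measure follows the size of a gene's own variation as well as its shape, and the 16 arrays include both strains.

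Genes that bind, splice, chaperone or turn over titin were measured for 14 of 16 listed. Of these, 7 were called lower in HHR, 2 higher and 5 neither, with a median difference of -0.16. The share of all probe sets called lower was 11%, as given above. Rbm20, the splicing factor of titin, ranged from 10.37 to 10.66 in HHR (median 10.52) and from 10.68 to 11.21 in NHR (median 10.90). All 8 HHR arrays lay below every NHR array, and Rbm20 fell by 0.41 (SE 0.06, limma adjusted p = 2.0e-04). Trim55 and Trim63, ubiquitin ligases of the MuRF family that bind titin at the M band, fell by 0.57 and 0.31 (limma adjusted p = 2.1e-06 and 1.3e-04), again with 8 of 8 HHR arrays below every NHR array. The third relative, Trim54, fell by 0.21 (limma adjusted p = 0.0275), as did Unc45b, a chaperone of myosin (-0.24), and Sqstm1 and Nbr1, autophagy receptors linked to the kinase domain of titin (-0.33 and -0.19).

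The 2 genes of this list that rose were Fhl1, a LIM protein that binds the cardiac spring of titin (0.42, SE 0.07, limma adjusted p = 7.9e-04), and Cryab, a small heat shock protein that binds titin (0.12, SE 0.04, limma adjusted p = 0.0346). Both genes were higher on all 8 HHR arrays than on any NHR array, a separation seen for 1.95% of all probe sets. Without the 3 NHR arrays of high score, 5 of the list were lower and 1 higher, and Trim54 (-0.11, limma adjusted p = 0.203), Nbr1 (-0.14, 0.112) and Cryab (0.09, 0.139) were no longer called.

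Other Z disc genes went both ways. Of 25 measured of 34 listed, 4 rose, 3 fell and 18 did not pass, with a median difference of -0.05. These shares are near those over all genes, of which 11.8% were called higher and 11.2% lower. Capza2, a subunit of the protein that caps actin filaments at the Z disc, ranged from 11.94 to 12.17 in HHR and from 11.22 to 11.87 in NHR, with 8 of 8 HHR arrays above every NHR array (difference 0.50, SE 0.07, limma adjusted p = 1.8e-04). Cfl2, the cofilin of muscle, which severs actin filaments, was higher by 0.38 (SE 0.07, limma adjusted p = 8.6e-04), with 8 of 8 HHR arrays above every NHR array. Pdlim1, a PDZ and LIM protein that binds alpha-actinin, was higher by 0.24 (SE 0.05, limma adjusted p = 0.00285), with 7 of 8 above. Nrap, which anchors thin filaments during myofibril assembly, was lower by -0.27 (SE 0.06, limma adjusted p = 0.00303), with 7 of 8 HHR arrays below every NHR array. Without the 3 NHR arrays, 3 genes of the list were higher and 4 lower. Cfl2 then differed by 0.26 (limma adjusted p = 0.00202) and Capza2 by 0.37 (7.8e-04). Bag3, a co-chaperone in the turnover of Z disc proteins (-0.30, limma adjusted p = 6.6e-04), and Mypn, myopalladin (-0.18, 0.0165), passed only there of these 2 settings.

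The other genes past the test in this list were Pdlim7 (0.18), Pdlim5 (-0.20) and Jph2 (-0.24), a junctophilin that ties the transverse tubule to the sarcoplasmic reticulum beside the Z disc. Pdlim7 and Pdlim5 were not called without the 3 NHR arrays (limma adjusted p = 0.172 and 0.145). Csrp3, the muscle LIM protein, averaged 12.64 ± 0.08 in HHR and 12.63 ± 0.06 in NHR (SD, n = 8 each), with a difference of 0.01 that did not pass (limma adjusted p = 0.886). Ldb3 (cypher or ZASP), which binds alpha-actinin, differed by -0.09 (limma adjusted p = 0.157) and was called after quantile normalization and after cyclic loess.

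**Figure D4:**
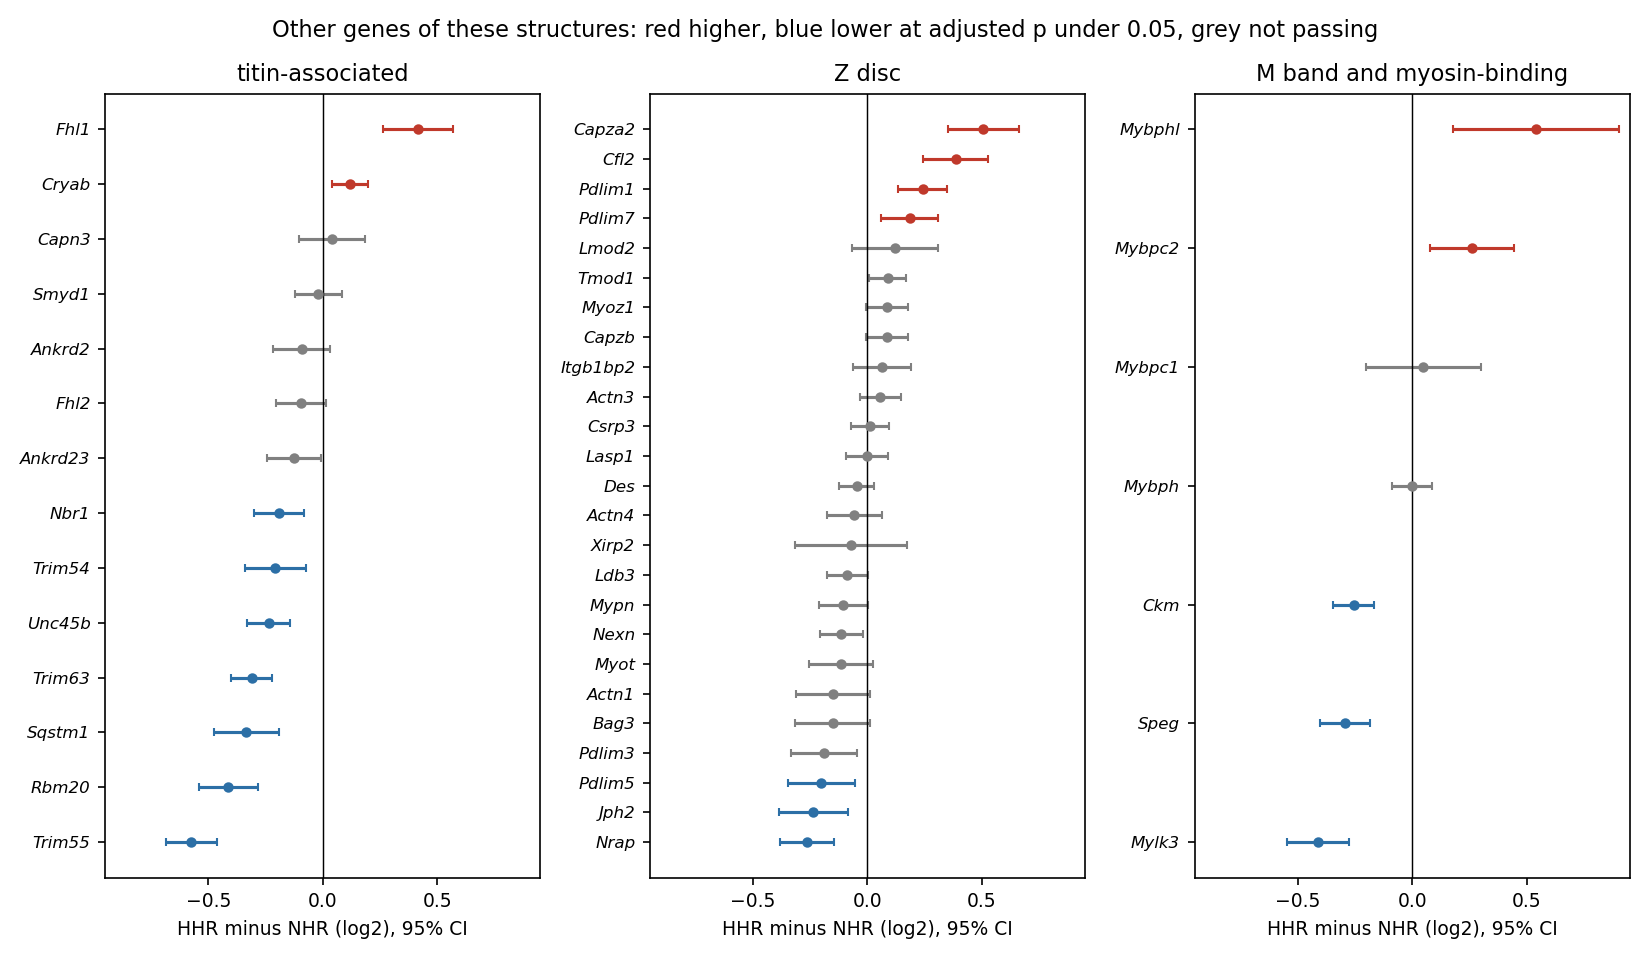
HHR minus NHR (log2, horizontal axes) with 95% confidence intervals for the other measured genes of these structures, in the lists titin-associated (14), Z disc (25) and M band and myosin-binding (7). Red passed as higher in HHR, blue as lower and grey did not pass. The titin-associated list has 7 lower and 2 higher genes and the Z disc list 3 lower and 4 higher.

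Among M band and myosin-binding genes, 7 of 11 listed were measured, of which 3 were called lower, 2 higher and 2 neither, with a median difference of -0.0017. The shares over all genes were 11.2% lower and 11.8% higher. The 3 that fell, each with all 8 HHR arrays below every NHR array, were Mylk3, the myosin light chain kinase of the heart (-0.41, SE 0.06, limma adjusted p = 3.3e-04), Ckm, the creatine kinase bound at the M band (-0.26, SE 0.04, limma adjusted p = 4.6e-04), and Speg, a kinase of striated muscle (-0.29, SE 0.05, limma adjusted p = 8.1e-04). The 2 that rose were Mybphl, a relative of myosin-binding protein C found in atria (0.54, SE 0.17, limma adjusted p = 0.0337), and Mybpc2, the fast skeletal myosin-binding protein C (0.26, SE 0.09, limma adjusted p = 0.0426). Both lost the call without the 3 NHR arrays (limma adjusted p = 0.114 for Mybphl and 0.340 for Mybpc2). Mybphl lost it in 12 of 29 alternatives, including removal of any of HHR male 2, HHR male 4, NHR female 2, NHR female 4, NHR male 1, NHR male 2 or NHR male 4 (limma adjusted p = 0.0504 to 0.0706). Mybphl stood at 9.74 in HHR female 2, against 8.45 to 9.13 in the other HHR arrays. The call was kept without HHR female 2, and the smallest difference with 1 array left out was 0.39. The mean of 7 atrial markers was also highest in HHR female 2, at 10.44, against 9.66 to 10.02 in the other HHR arrays and 9.38 to 9.99 in NHR. The part of atrial tissue in the value of Mybphl was not tested. Myom3 had no single-symbol probe set and was not analysed here.

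Summed over the 3 lists, 13 of 46 measured genes fell and 8 rose, against 11.2% lower and 11.8% higher over all genes. The higher genes are thus not far from the share over all genes. The count of higher genes was 4 without the 3 NHR arrays, and also 4 without HHR male 2 or without NHR male 1, and 5 without any of HHR female 1, HHR male 4, NHR female 3, NHR female 4 or NHR male 4. Lower genes numbered 10 to 15 over these single removals.

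Markers of several cell types differed between the strains, in both directions. Over all 14324 genes 11.2% were called lower and 11.8% higher, and each marker list is short. Of 10 heart muscle markers 6 fell (Myh6, Myh7, Tnni3, Tnnc1, Myl2 and Ryr2), 0 rose and 4 did not pass (Tnnt2 at -0.09, Actc1 at 0.01, Myl3 at 0.02 and Pln at 0.03), with a median difference of -0.14. Their mean log2 level had medians of 13.42 in HHR and 13.54 in NHR, and the ranges given above overlapped only slightly. Without the 3 NHR arrays 2 of the 10 were lower, in a setting where calls over all probe sets also dropped, to 2150 lower and 1847 higher, against 3015 lower and 2636 higher with all arrays. Of 5 measured endothelial markers 3 fell and 0 rose, and their mean level was 10.23 to 10.35 in HHR against 10.36 to 10.56 in NHR. Of 8 fibroblast markers 3 rose and 0 fell, with mean levels of 10.77 to 11.09 in HHR and 10.64 to 10.92 in NHR. Of 7 atrial markers 3 rose (Nppa, Bmp10 and Kcnj3) and 1 fell (Kcna5). Of 5 erythroid markers 2 rose (Hbb and Ahsp) and 2 fell (Slc4a1 and Epb42), of 7 mural and smooth muscle markers 2 rose and 1 fell, and of 8 leukocyte markers 1 rose and 1 fell. Of the 11 skeletal muscle markers 2 fell (Myog and Ckm). The counts for leukocyte and skeletal muscle markers are not far from the shares over all genes. The part of cell composition in the lower Ttn, Mybpc3 and Myom1 was not tested, and fewer muscle cells and less RNA per muscle cell cannot be told apart in whole tissue.

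**Figure D5:**
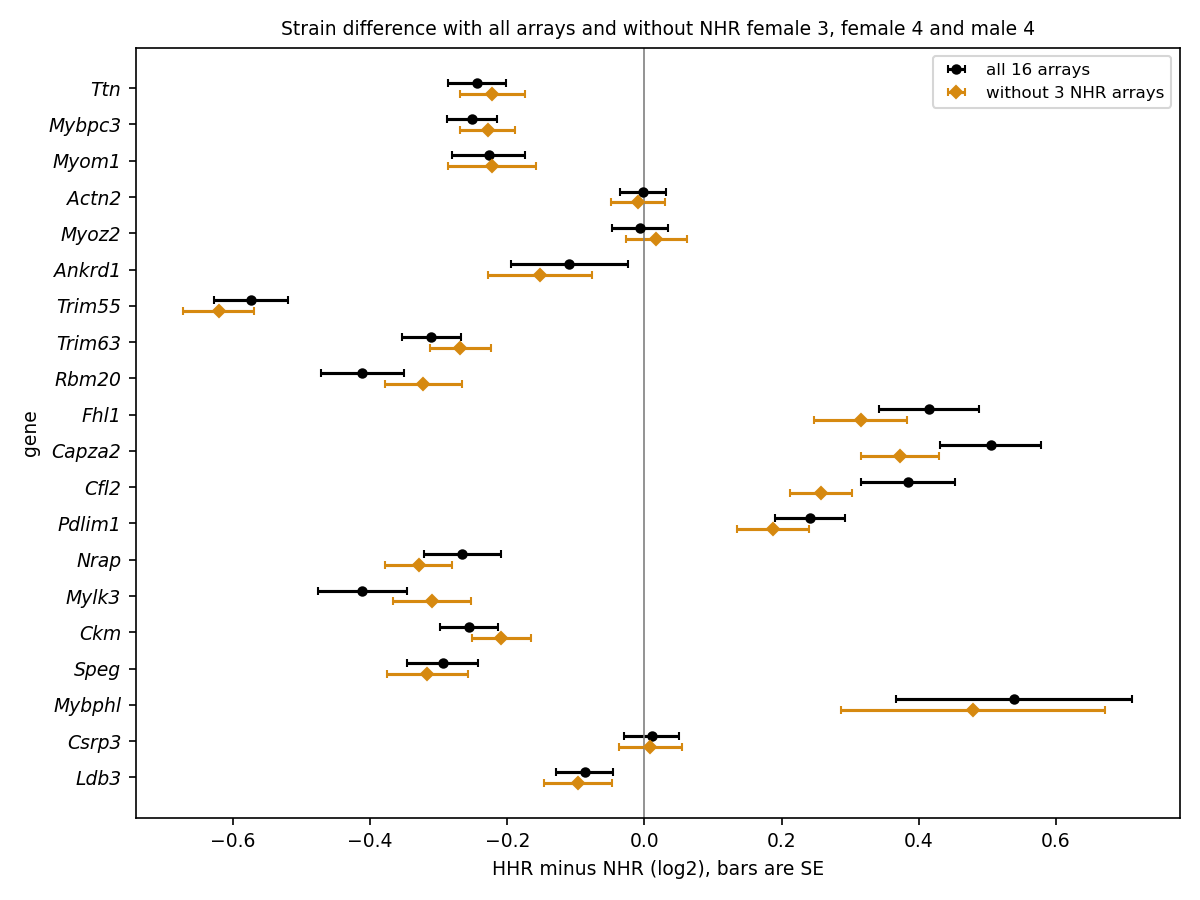
HHR minus NHR (log2, horizontal axis, bars are SE) with all 16 arrays (black) and without NHR female 3, NHR female 4 and NHR male 4 (orange), for the 6 measured genes and the 14 other genes named by rule. Ttn, Mybpc3 and Myom1 read -0.22, -0.23 and -0.22 without the 3 arrays, against -0.24, -0.25 and -0.23 with them.

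Leaving out the 3 NHR arrays moved the differences of the leading genes little. Ttn then differed by -0.22 (SE 0.05, limma adjusted p = 0.00635), Mybpc3 by -0.23 (SE 0.04, limma adjusted p = 0.00196) and Myom1 by -0.22 (SE 0.06, limma adjusted p = 0.0308). Actn2 (-0.0094), Myoz2 (0.017) and Ankrd1 (-0.15, limma adjusted p = 0.21) did not pass. Over all single-array removals the difference lay between -0.27 and -0.23 for Ttn, between -0.27 and -0.24 for Mybpc3 and between -0.25 and -0.19 for Myom1, and each passed every time.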

How the data were processed

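RNA of 16 neonatal rat hearts was measured on Affymetrix Rat Gene ST arrays, each with the RNA of 1 pup. The authors deposited log2 values; the submitters' processing notes name RMA, which adjusts for background, puts the arrays on a common scale and combines the probes of a set, and limma, without versions. No background level came with the values, and the number of arrays limits precision.

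The platform annotation names 1 gene for 15097 probe sets, several for 323 and none for 11922. The brightest probe set stood for a gene. Group means were fitted with limma 3.58.1 (R 4.3.3) to all 27342 probe sets and p-values adjusted by Benjamini-Hochberg over all of them, for 5 comparisons. The fit was tested on simulated data with independent noise on each array. These lacked the shared within-group component of the real arrays, so they do not check the p-values given here. The members, the lists and the alternatives were chosen with earlier results of these data known. The text names the members, up to 4 called genes per list, taken by adjusted p, and Rbm20, Csrp3, Ldb3, Myom3 and Trim63; other genes were picked after their values were seen. Alternatives were other normalizations, moderation, array weights, filters, thresholds and covariates, a replicate block, removal of each array, and removal of 3 arrays. Promoters are from RefSeq, build GRCr8.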

Additional observations from a re-analysis of the deposited data

Results flagged for a closer look

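In 10 of 80 groups of 4 arrays, over the 6 genes and the 14 others named by rule, the highest or lowest array was separated from the rest of its group by a gap of more than 0.829 of the group's range (Dixon's test at the 95% level). Chance alone flags about 1 group in 20. Among the 6 genes, Myom1 was low in HHR female 4 (11.56, next 11.72) and in HHR male 4 (11.42, next 11.70), and Actn2 was high in NHR female 2 (13.30, next 13.23). Trim55 was low in NHR female 3 (12.25) and high in NHR male 3 (12.66). Nrap was high in HHR male 3 (10.79), Ckm low in HHR female 1 (12.89), Speg low in HHR female 4 (9.49), Mybphl high in HHR female 2 (9.74) and Csrp3 high in HHR female 1 (12.80). No interaction of strain and sex passed limma's test for any of these 20 genes.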

How the results depend on the processing

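Ttn, Mybpc3 and Myom1 kept their direction and their call for strain in 28 of 29 alternatives, the exception being the 1.5-fold minimum, at which 0 members and 0 other listed genes, higher or lower, passed. Of the other listed genes, 8 were higher as reported, against 5 with array weights, 4 at an adjusted p under 0.01, 4 without the 3 NHR arrays, and 4 to 8 when 1 array was left out. Over all probe sets the strain count of 5651 was 2893 at an adjusted p under 0.01 and 229 with the 1.5-fold minimum. In females 1 member passed as reported, against 2 with quantile normalization, 3 with cyclic loess, 2 with trended moderation, 2 with array weights, 0 with the 1.5-fold minimum, 0 without the 3 NHR arrays and 1 to 2 with 1 array left out. The female count over all probe sets (3278) was 1176 at 0.01, 334 at 1.5-fold, 1238 without the 3 NHR arrays and 1830 to 3761 with 1 array left out. In males 2 members passed, against 0 at 1.5-fold and 2 to 3 with 1 array left out. The count was also 3, with Myom1 added, after quantile normalization, cyclic loess, trended moderation, array weights and the filter on dim probe sets. The male count (1098) was 2035 with array weights, 332 at 0.01, 200 at 1.5-fold and 489 to 2026 with 1 array left out. The interaction count (0) was 0 to 1 with 1 array left out. The sex count (3) was 5 with array weights and 0 at 0.01, at 1.5-fold and without the 3 NHR arrays. Stricter thresholds give lower counts by construction; the other causes were not tested.

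Differences near 0 turned sign. For strain, Csrp3 read -0.040 with quantile normalization and -0.043 with cyclic loess; Myoz2 read 0.016 with median centring, 0.0065 with array weights and 0.017 without the 3 NHR arrays; Actn2 read 0.020 with median centring. With 1 array left out, the strain difference ranged from -0.025 to 0.013 for Myoz2, -0.0089 to 0.0060 for Actn2 and -0.0098 to 0.019 for Csrp3. In females, Actn2 read 0.028 and Ankrd1 0.024 with median centring, and ranged from -0.012 to 0.013 and from -0.15 to 0.076 with 1 array left out. In males, Myoz2 read -0.019 with quantile normalization, and Actn2 0.013 with median centring, 9.4e-04 without the 3 NHR arrays and -0.015 to 0.013 with 1 array left out. For the interaction, Actn2 read -0.015 with median centring and -0.015 to 0.016 with 1 array left out, Mybpc3 0.0079 with cyclic loess, and Myom1 -0.096 to 0.022 with 1 array left out. For sex, Actn2 and Mybpc3 read -0.011 and -0.0076 with median centring, -0.0073 and -0.0061 with cyclic loess, and -0.0078 and -0.0014 without the 3 NHR arrays, where Ankrd1 read -0.056; Ankrd1 read -0.014 with array weights. With 1 array left out, the sex difference ranged from -0.0053 to 0.010 for Actn2, -0.010 to 0.020 for Mybpc3, -0.038 to 0.021 for Myom1 and -0.052 to 0.055 for Ankrd1. The causes were not tested.

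With the replicate block 6145 probe sets passed for strain, 3874 in females, 1639 in males, 0 for the interaction and 3 for sex, and the member counts were as reported (3, 1, 2, 0 and 0). The sources used here do not say what a replicate number stands for, and whether the numbers pair the arrays was not tested. Deviations of same-numbered arrays correlated at -0.11 to 0.37, over 0.1 in 11 of 24 pairs. Of the 16 arrays, 9 correlated best with an array of their own number. Rescaling moved the median strain difference over all probe sets between -0.029 as reported and -0.0022 with cyclic loess. No depth applies to array values.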
